A study of Rattus norvegicus with 9 samples.

Results

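Cytochrome P450 (P450) genes of families 1 to 4 were described in rat liver 24 h after 6.5 Gy total-body irradiation (TBI). The members were the genes whose RefSeq symbol starts with Cyp1 to Cyp4 and a subfamily letter, and which had a probe that the scanner software marked as well above background in all 3 rats of 1 group or more. This gave 39 P450 genes of 45 on the array, among 9604 named genes that passed the same filter. Family 1 had 1 of 3 genes past it, family 2 had 24 of 27, family 3 had all 4, and family 4 had 10 of 11. The rule did not use differences between groups.

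The rats were male, of the Wistar strain per the study's methods, and gave 1 array each in 3 groups of 3. Control rats were not irradiated. TBI rats received 6.5 Gy from a 60Co source. HSC + TBI rats were given Hong Shan Capsule (HSC), a preparation of medicinal herbs, by stomach on 3 consecutive days before the same exposure. The sample protocols give its dose as 30 mg/kg/day and the series design as 10 g/kg/day. None of the 3 groups received HSC without TBI, so these arrays hold no value for HSC alone. The labels do not tie the rats to cages or days of dissection.

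P450 enzymes of families 1 to 3 are haem proteins of the hepatocyte's endoplasmic reticulum that oxidize drugs, other foreign compounds and steroids. Those of family 4 mainly oxidize fatty acids and their derivatives. Their transcription is set largely by receptors: the aryl hydrocarbon receptor for Cyp1, the receptors CAR (Nr1i3) and PXR (Nr1i2) for Cyp2b and Cyp3a, and PPAR alpha (Ppara) for Cyp4a. In the rat, several Cyp2 and Cyp3a genes also follow the sex pattern of growth hormone release. All of them draw electrons through P450 reductase (Por).

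The stretches before the start of 4 genes on which the results turn are shown because 3 of them belong to a single subfamily whose signal differed most from control. They are 250 bases long, from RefSeq with build GRCr8, each written 5′ to 3′ on the gene's strand and ending at the base before the gene's start. Capitals mark AGGTCA or AGTTCA, half-sites of nuclear receptors, searched on both strands. Cyp4a2 lies at chr5:134170909-134171158 (minus strand), Cyp4a3 at chr5:134352237-134352486 (minus strand), Cyp4a8 at chr5:133970227-133970476 (minus strand) and Cyp2c11 at chr1:246174966-246175215 (plus strand). Cyp4a1 was not printed.
Cyp4a2: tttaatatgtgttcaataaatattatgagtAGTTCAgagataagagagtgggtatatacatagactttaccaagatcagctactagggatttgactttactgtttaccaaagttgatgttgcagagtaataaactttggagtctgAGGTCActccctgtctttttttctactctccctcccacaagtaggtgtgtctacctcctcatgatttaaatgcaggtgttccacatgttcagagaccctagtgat
Cyp4a3: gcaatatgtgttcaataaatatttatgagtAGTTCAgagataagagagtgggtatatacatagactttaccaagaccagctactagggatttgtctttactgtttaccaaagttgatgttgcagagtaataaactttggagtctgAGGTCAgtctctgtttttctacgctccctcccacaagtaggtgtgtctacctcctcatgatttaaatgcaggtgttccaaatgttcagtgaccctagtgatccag
Cyp4a8: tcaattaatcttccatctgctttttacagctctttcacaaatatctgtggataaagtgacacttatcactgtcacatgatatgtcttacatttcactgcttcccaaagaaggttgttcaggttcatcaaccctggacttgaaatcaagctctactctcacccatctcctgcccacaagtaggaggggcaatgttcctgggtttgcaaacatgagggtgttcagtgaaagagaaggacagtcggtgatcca
Cyp2c11: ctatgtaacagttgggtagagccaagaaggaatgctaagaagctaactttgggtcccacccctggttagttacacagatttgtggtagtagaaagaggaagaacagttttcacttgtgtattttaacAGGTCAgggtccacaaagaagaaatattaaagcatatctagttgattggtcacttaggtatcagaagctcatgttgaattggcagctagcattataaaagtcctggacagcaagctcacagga
The Cyp4a2 and Cyp4a3 stretches were identical at 92.5% of aligned positions, and both held AGTTCA at -220 and AGGTCA at -105, counted from the start. The Cyp4a8 stretch was 54.6% identical to that of Cyp4a2 and held neither word. In Cyp2c11, AGGTCA began at -123.

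Of the 39 members, 34 had such a stretch in the table. AGGTCA was in 13 of the 34 (38.2%), against 14.1% of all 33469 stretches of this length. AGTTCA was in 10 (29.4%), against 12.2% of all. GCGTG, the core word of the aryl hydrocarbon receptor's site, was in 6 (17.6%), against 25.9% of all, and was searched on both strands as well. These counts describe letters in the windows and carry no test.

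Of all probes, 56.6% to 59.3% carried this mark in the controls, 63.6% to 69.5% after TBI and 58.7% to 60.5% after HSC + TBI. The 3 control arrays shared a slide, the 3 TBI arrays shared another, and the HSC + TBI arrays were on 2 more, so slide and group cannot be told apart. All 8 hepatocyte markers tested, from albumin to transferrin, were above background, and limma called 0 of them in each comparison at the threshold used below, with 2 at an unadjusted p under 0.05 in TBI against control and 0 in the other comparisons. Their summed linear signal ranged from 1560000 to 1620000 in control, 1490000 to 1700000 in TBI and 1540000 to 1620000 in HSC + TBI. Kupffer cell and macrophage markers summed to 88900 to 139000 in control, 93000 to 174000 in TBI and 65100 to 70400 in HSC + TBI, with 0 of 8 called by limma. At an unadjusted p under 0.05 there were 1 in TBI against control, 4 in HSC + TBI against control and 7 in HSC + TBI against TBI, with a median log2 fold change of -1.03 in the last. Of 5 lymphocyte markers tested, Cd79b was called lower in both irradiated groups, and the summed signal was 485 to 657 in control, 328 to 505 in TBI and 291 to 402 in HSC + TBI. Lrat of 8 stellate cell and matrix markers fell and Epb42 of 4 erythroid markers rose after TBI, while 0 of 5 endothelial and 0 of 3 bile duct markers were called by limma (1 and 0 at an unadjusted p under 0.05). The summed erythroid signal was 1820 to 4530 in control, 1250 to 2570 in TBI and 984 to 1600 in HSC + TBI. At an unadjusted p under 0.05 by limma there were 3 of the 4 erythroid markers in each comparison with control. Over all named genes limma called 7.79% in TBI against control and 3.88% in HSC + TBI against control. In HSC + TBI against TBI the share was 0.791%. With lists this short, 0 or 1 call is not read as a stable or a changed cell type. Whether the makeup of the tissue bears on the P450 values was not tested. In whole liver, fewer cells of a type and less RNA per cell cannot be told apart.

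The first question was which P450 genes differed 24 h after TBI alone. A gene was called when its brightest probe had a Benjamini-Hochberg adjusted p under 0.05 over all 25369 probes by limma and a fold change of at least 1.5. TBI against control called 7 of 39 P450 genes, which is 17.9%, against 7.79% of all named genes. Cyp4a1, Cyp4a2, Cyp4a8 and Cyp2a1 rose, where 3.87% of all genes did. Cyp2c11, Cyp2t1 and Cyp2b1 fell, where 3.92% of all genes did. At an unadjusted p under 0.05 by limma there were 16, with 6 higher and 10 lower. Such p-values were common over all probes, since an unadjusted p of 0.0494 (Onecut1) had an adjusted p of 0.195 by limma. The share of all named genes under 0.05 unadjusted is not given here for any comparison. Unadjusted counts of members are therefore not read as an excess or a lack. Over all 39 the median log2 fold change was -0.12, against 0.01 over all named genes, and the values ran from -1.47 to 2.04.

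How many P450 genes passed, and which, rested on single rats. Leaving out a control rat gave 4 (control 1), 2 (control 2) or 0 (control 3) calls, and leaving out a TBI rat gave 3 (TBI 1), 0 (TBI 2) or 4 (TBI 3). Of the 4 called without control 1, 2 were among the 7, and so were 2 of the 4 called without TBI 3. With any other single rat left out, every gene called was among the 7. It was 1 without HSC + TBI 1 and 3 without HSC + TBI 2 or HSC + TBI 3, which enter this comparison only through the shared estimate of the spread. With a shift of each array to its 75th percentile in place of quantiles, 4 genes rose and 0 fell. With only the 2 groups compared in the fit, 1 was called, and the methods' t-test called 10 before adjustment and 0 after it. No called gene changed sign under any of these.

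**Figure D1:**
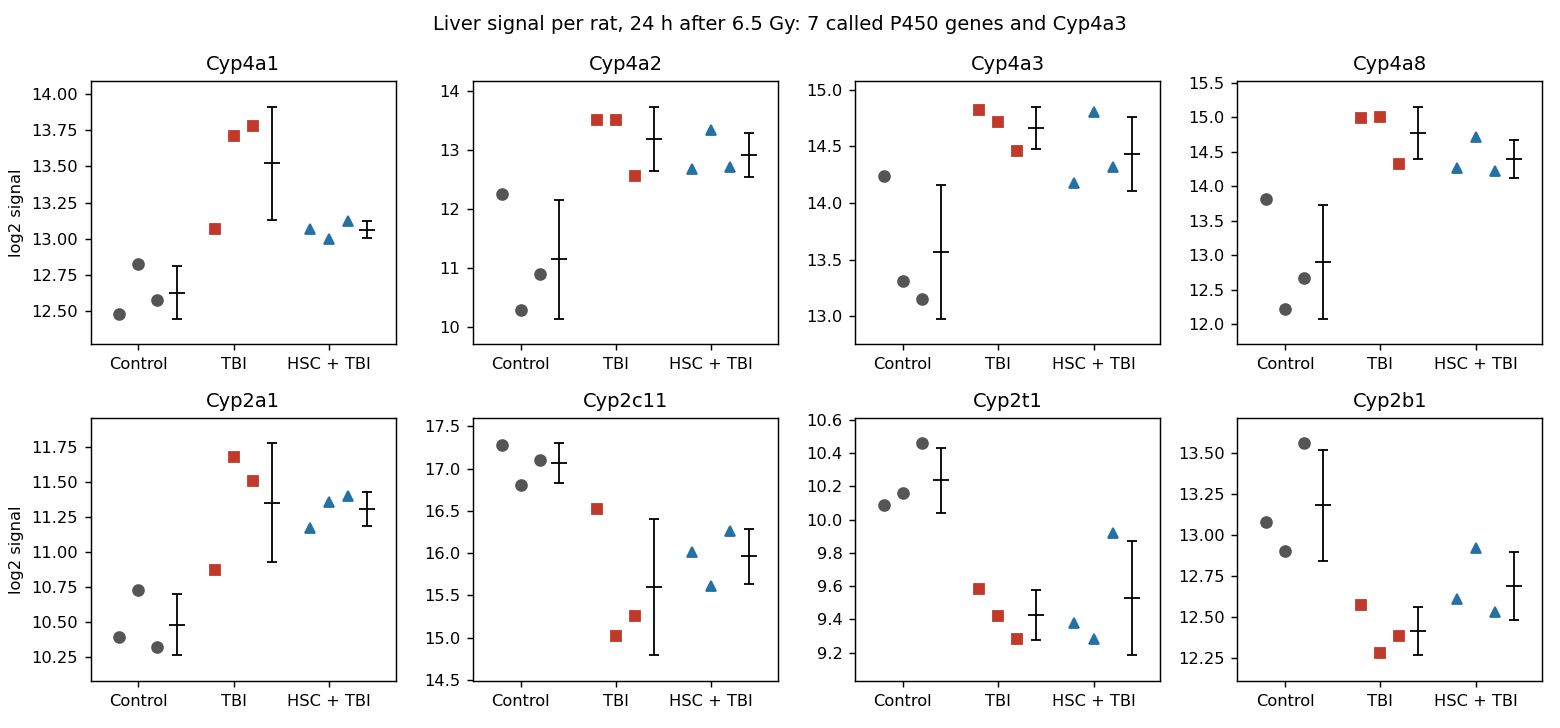
Log2 signal of the 7 genes called in TBI against control and of Cyp4a3, by group; points are single rats (3 per group), and the bar beside them is the mean ± SD. In every panel the 3 TBI rats lie on 1 side of the 3 control rats, each panel has its own axis, and levels are not comparable between panels.

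The fatty acid hydroxylases of subfamily 4a held the 2 largest increases among the members. Cyp4a2 was at a log2 signal of 12.26, 10.29 and 10.90 in control rats 1 to 3, 13.50, 13.51 and 12.56 in the TBI rats, and 12.68, 13.34 and 12.71 in the HSC + TBI rats. All irradiated rats lay above all control rats, and control 1 was well above the other 2 controls. Cyp4a2 rose 4.10-fold after TBI (log2 2.04 ± 0.48 SE, limma adjusted p = 0.0387). Omitting control 2 or 3, TBI 1 or 2, or any single HSC + TBI rat ended its call, with log2 fold changes from 1.61 to 2.04. The call held without control 1, at 2.59, and without TBI 3, at 2.35.

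Cyp4a8 followed the same order of groups. Its log2 signal was 13.82, 12.22 and 12.67 in control, 14.99, 15.0 and 14.33 in TBI, and 14.26, 14.72 and 14.22 in HSC + TBI. Again no irradiated rat reached down to the controls, of which control 1 was the highest. The rise after TBI was 3.65-fold (log2 1.87 ± 0.39 SE, limma adjusted p = 0.0237). Leaving out control 2, control 3, TBI 1 or TBI 2 ended the call. Over all omissions the log2 value was 1.53 to 2.33, the highest without control 1, where the call held.

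Cyp4a1 had less spread between control rats. The log2 signal was 12.48, 12.83 and 12.58 in control, 13.07, 13.71 and 13.78 in TBI, and 13.07, 13.00 and 13.12 in HSC + TBI. TBI 1 lay beside the HSC + TBI rats, and the other 2 TBI rats lay above them. Cyp4a1 rose 1.85-fold (log2 0.89 ± 0.19 SE, limma adjusted p = 0.0286) after TBI. Without control 1, control 3, TBI 2, TBI 3 or HSC + TBI 1 it was not called. Over all omissions the log2 value was 0.76 to 1.11, the highest without TBI 1, where the call held.

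The remaining member of the subfamily, Cyp4a3, was at 14.24, 13.31 and 13.15 in control, 14.82, 14.72 and 14.46 in TBI, and 14.18, 14.80 and 14.32 in HSC + TBI (log2 signal). Its TBI rats lay above all controls, but HSC + TBI 1 lay under control 1. Its log2 fold change after TBI was 1.10 ± 0.29 SE with a limma adjusted p of 0.0548, just outside the threshold. Cyp4a2 and Cyp4a3 are close copies, as the stretches above show for their starts, and how far a probe of one also binds transcripts of the other was not tested.

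Of the other 6 family 4 genes none was called, beside 7.79% of all named genes. Cyp4f4, a member of the subfamily that hydroxylates leukotrienes, was at 14.93, 15.12 and 14.81 in control against 14.60, 14.37 and 14.46 in TBI. These groups did not overlap and its limma adjusted p was 0.0456, but the change of -0.48 on the log2 scale was under 1.5-fold. The HSC + TBI rats, at 14.64, 14.64 and 14.69, lay between the other groups without overlap. Cyp4f1 (log2 fold change -0.11), Cyp4f6 (-0.26) and Cyp4f5 (-0.76) were not called. Cyp4b1 was at -0.38 and Cyp4v3 at 0.68. Over the 10 genes of family 4 the median was 0.29, with 5 above 0 and 5 below under quantiles, the 75th percentile shift, normexp and the authors' own normalized values alike.

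Of the 4 family 2 genes called, Cyp2c11 and Cyp2a1 are known to differ between the sexes in rat liver. Cyp2c11, the main male-specific P450 of the adult rat and a steroid hydroxylase, was at 17.28, 16.81 and 17.10 (log2 signal) in control, 16.52, 15.02 and 15.25 in TBI, and 16.01, 15.61 and 16.26 in HSC + TBI. Every irradiated rat was below every control, and TBI 2 and 3 were the lowest. Cyp2c11 fell by 1.47 on the log2 scale after TBI (SE 0.37, limma adjusted p = 0.0454), a 2.77-fold difference. The call held without TBI 1, at -1.93, and was lost when any other rat was left out, at -1.60 to -1.18. It was also lost under the 75th percentile shift, at -1.5.

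Cyp2a1, a testosterone hydroxylase that is more abundant in females, was at 10.39, 10.73 and 10.32 in control, 10.87, 11.68 and 11.51 in TBI, and 11.17, 11.36 and 11.40 in HSC + TBI. All irradiated rats exceeded all controls. Cyp2a1 rose 1.83-fold after TBI (log2 0.88 ± 0.22 SE, limma adjusted p = 0.0439). It was called without TBI 1, at 1.12, and with no other rat left out, at 0.71 to 1.0. Its neighbour in the subfamily, the male-biased Cyp2a2, had a log2 fold change of 0.17 after TBI and was not called.

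Apart from these and Cyp4a2, which is male-biased too, no sex-biased member passed. Cyp2c12, the main female-specific P450, was at 9.84, 6.70 and 8.86 in control, 10.22, 8.75 and 9.78 in TBI, and 8.83, 10.65 and 10.14 in HSC + TBI. The control rats alone spanned more than the difference of 1.12 on the log2 scale between TBI and control (SE 0.80, limma adjusted p = 0.416). Of 7 male-biased genes, Cyp4a2 rose and Cyp2c11 fell, and the median was -0.08. Cyp2c13 (-0.08), Cyp3a2 (-0.12), Cyp3a18 (-0.19) and Cyp2c22 (0.11) were not called. Of 3 female-biased genes, Cyp2a1 rose and Cyp2c7 was at 0.08, with a median of 0.88. The numbers of these lists called were 2 of 7 and 1 of 3, beside the 7.79% of all named genes.

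Of 8 genes listed for CAR, Cyp2b2 had no named probe on the array. Among the 7 tested, Cyp2b1 fell and Cyp2a1 rose, and the other 5 were not called. This makes 2 of 7, beside 7.79% of all named genes. Whether CAR controls each listed gene in these livers was not tested. Cyp2b1, the phenobarbital-inducible P450, was at 13.08, 12.90 and 13.56 in control, 12.57, 12.28 and 12.38 in TBI, and 12.61, 12.92 and 12.53 in HSC + TBI on its brightest probe. TBI rats were all below controls, and HSC + TBI 2 was level with the lowest control. By this probe Cyp2b1 fell by 0.77 on the log2 scale (SE 0.19, limma adjusted p = 0.0448). The call stood without control 2, at -0.91, and was lost without any other rat, at -0.85 to -0.58. It was also lost under the 75th percentile shift, at -0.69, and with the authors' own normalized values, at -0.75.

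The array carried 4 probes named Cyp2b1, and they disagreed. The third probe was at 8.64, 8.20 and 9.72 in control against 6.49, 6.29 and 7.70 in TBI, a log2 fold change of -2.02 (limma adjusted p = 0.0344). The second, at 11.63, 11.73 and 12.13 against 11.83, 11.77 and 11.78, differed by -0.03 (adjusted p = 0.907 by limma). The fourth was at -1.12 (limma adjusted p = 0.0602). Thus 3 of the 4 probes had lower means after TBI by 0.77 or more and 1 did not. Which transcripts each probe binds was not examined, and Cyp2b genes share much of their sequence.

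**Figure D2:**
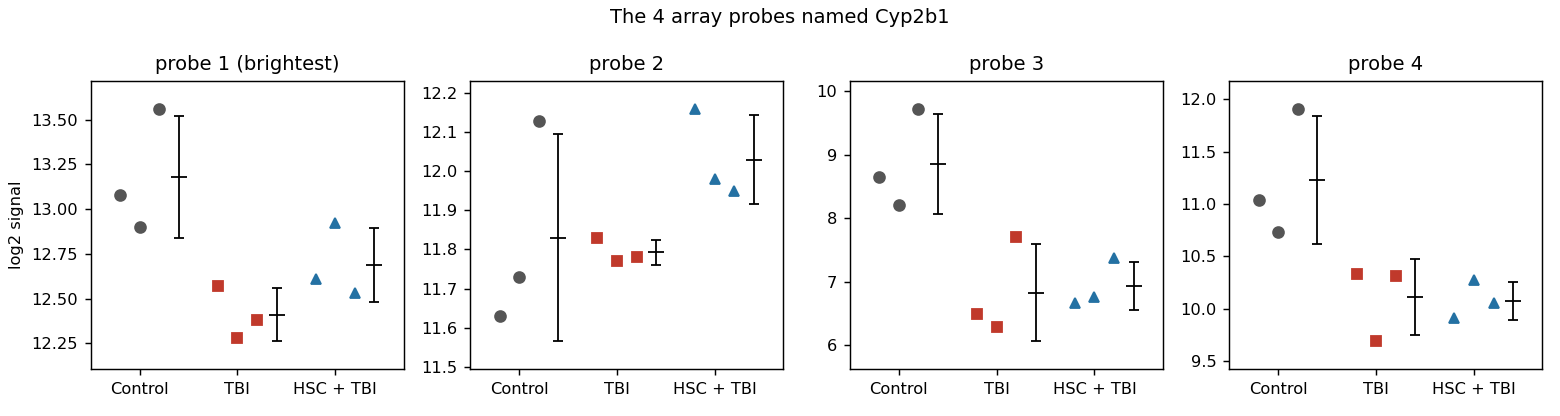
Log2 signal of the 4 probes named Cyp2b1 by group; points are single rats (3 per group) and bars are the mean ± SD. Probes 1, 3 and 4 have all TBI rats below all controls, while on probe 2 the TBI rats lie within the range of the controls.

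In the rest of subfamily 2b the log2 fold changes after TBI were -0.67 for Cyp2b12 (limma adjusted p = 0.120), -0.27 for Cyp2b15, -0.12 for Cyp2b21 and -0.08 for Cyp2b3. Cyp2c6v1, which phenobarbital also induces, was at 0.21. The median over the 7 genes tested of the CAR list was -0.12, the same as over all 39 members.

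Cyp2t1 was the remaining gene called. It was at 10.09, 10.16 and 10.46 in control, 9.58, 9.42 and 9.28 in TBI, and 9.38, 9.28 and 9.92 in HSC + TBI (log2 signal). Irradiated rats of both groups lay below all controls. Cyp2t1 fell by 0.81 on the log2 scale after TBI (SE 0.19, limma adjusted p = 0.0373). The call was lost without any single control or TBI rat or without HSC + TBI 1, at -0.89 to -0.70, and under the 75th percentile shift, at -0.77.

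None of the genes tested in families 1 and 3 was called after TBI (0 of 1 and 0 of 4), beside 7.79% of all named genes. Cyp1a2, which oxidizes caffeine and aromatic amines and was the 1 member of family 1, was at 14.55, 14.12 and 14.82 in control against 14.05, 13.91 and 13.62 in TBI. All 3 TBI rats were below the controls, with a log2 fold change of -0.64 ± 0.33 SE and a limma adjusted p of 0.267. Its second probe gave -0.53, but there TBI 2, at 10.97, lay above control 2, at 10.94. The other family 1 genes, Cyp1a1 and Cyp1b1, were not above background on all arrays of any group. Cyp1a1, the classical target of the aryl hydrocarbon receptor, was above background on 6 of the 9 arrays.

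Of 6 Cyp3a genes listed for PXR, Cyp3a23-3a1 and Cyp3a73 had no named probe on the array, so they have no value here. Cyp3a enzymes oxidize steroids and many drugs. Of the 4 tested genes, limma called 0, beside 7.79% of all named genes, and 0 had an unadjusted p under 0.05. For so few genes, 0 calls are not read as a lack. The methods' t-test after adjustment also called 0, as it did over all 39 members. The median of the 4 was -0.16. Cyp3a9 was at 9.25, 8.93 and 8.49 in control, 10.81, 10.96 and 8.17 in TBI, and 8.75, 9.52 and 9.89 in HSC + TBI. TBI 1 and 2 were above, and TBI 3 below, all controls, so the difference of 1.09 had an SE of 0.68 (limma adjusted p = 0.354). Without TBI 3 it was called, at 1.99. Cyp3a62 was at -0.49, with TBI 1 and 2 below all controls and TBI 3 among them.

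Most values in family 2 as a whole were negative. Of its 24 genes, 16 had lower means and 8 had higher means after TBI (33.3% higher, against 50.6% of all named genes). The split was identical under the 75th percentile shift, normexp and the authors' own normalized values, and the median was -0.18. Cyp2j4 (-0.75, limma adjusted p = 0.113) and Cyp2j3 (-0.40, adjusted p = 0.182 by limma) make epoxides of arachidonic acid, as does Cyp2c11, and these 3 had a median of -0.75 with Cyp2c11 called (1 of 3, beside 3.92% of all named genes called lower). The epoxygenase list held 6 genes, of which Cyp2c23 and Cyp2c24 had no named probe on the array. Cyp2j10 was not above background on all arrays of any group. The second Cyp2j3 probe was at -0.01. Cyp2d2 was at -0.46 (limma adjusted p = 0.0653) and Cyp2d5 at -0.56 (limma adjusted p = 0.0880), with TBI rats below all controls for both. Cyp2e1, the ethanol-oxidizing P450 of pericentral hepatocytes, was at 0.32 (limma adjusted p = 0.278).

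**Figure D3:**
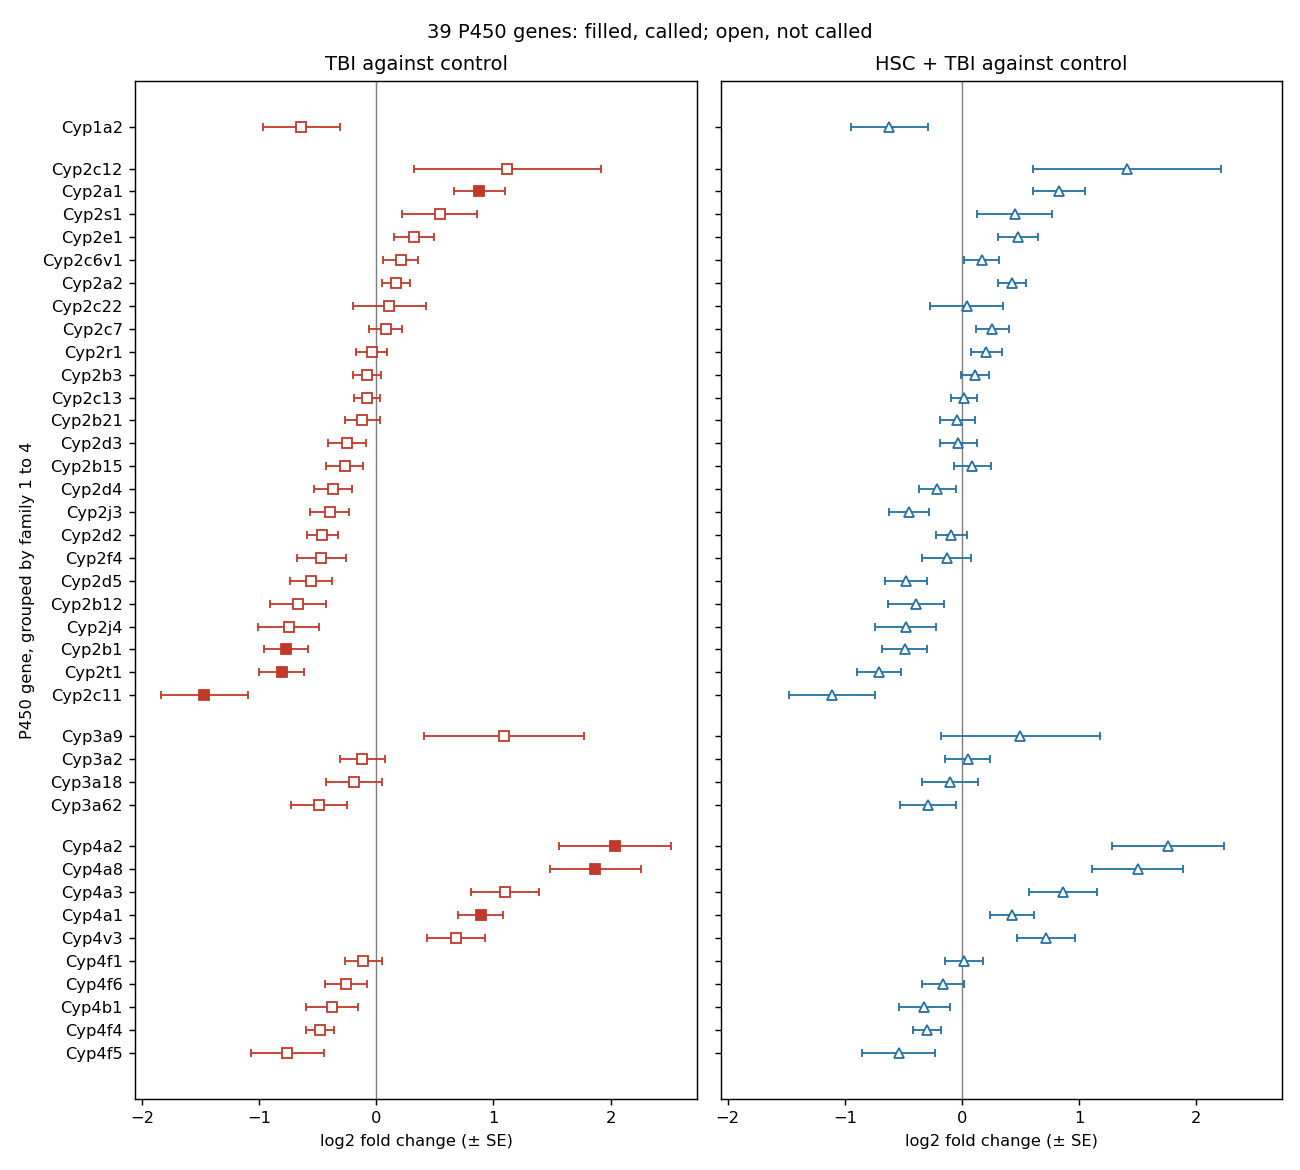
Log2 fold change (± SE, limma) of the 39 P450 genes in TBI against control and in HSC + TBI against control, grouped by family; filled symbols are called genes. The 7 filled symbols are in the TBI panel, and both panels share the control rats.

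The second comparison set HSC + TBI rats against the same control rats. Of the 39 P450 genes, 0 were called by limma, where 3.88% of all named genes were (1.18% higher and 2.71% lower). By limma at an unadjusted p under 0.05 there were 13, with 7 higher and 6 lower, and the methods' t-test called 5 before adjustment and 0 after it. The lowest adjusted p was 0.0783, for Cyp4a8. The median log2 fold change was 0.02, equal to that of all named genes, and the values ran from -1.11 to 1.76. Without control 1 the count was 4, without TBI 1 it was 2 and without HSC + TBI 3 it was 1. With the 2 compared groups alone in the fit it was 2, and under the 75th percentile shift it was 1.

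The 7 genes called after TBI are given here for the HSC + TBI rats. Cyp4a2 was at 1.76 (limma adjusted p = 0.0919), Cyp4a8 at 1.5 (limma adjusted p = 0.0783) and Cyp4a1 at 0.43 (limma adjusted p = 0.268) on the log2 scale. Cyp2a1 was at 0.83 (limma adjusted p = 0.0789). For Cyp2c11 the value was -1.11 (limma adjusted p = 0.145), for Cyp2t1 -0.71 (limma adjusted p = 0.0857) and for Cyp2b1 -0.49 (limma adjusted p = 0.206). Both comparisons use the same 3 control rats, so their values are not independent. That 7 genes passed in the first comparison and 0 in the second does not show that the effects differed.

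Other members with larger values were Cyp2c12 at 1.41, with its wide spread, Cyp4a3 at 0.86 and Cyp4v3 at 0.72. Cyp2e1 was at 0.48 and Cyp2a2 at 0.43, and their HSC + TBI rats lay above all controls. For Cyp2a2 these were 11.79, 11.80 and 11.67 against 11.35, 11.31 and 11.32 in control, with 11.47, 11.68 and 11.36 in TBI (limma adjusted p = 0.0889 for HSC + TBI against control). Cyp1a2 was at -0.62, since HSC + TBI 1 and 2 were at 13.59 and 13.37 while HSC + TBI 3 was at 14.67, among the controls. Over the 4 Cyp4a genes the median was 1.18, and over the 4 Cyp3a genes it was -0.02.

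Setting HSC + TBI rats directly against TBI rats asks whether the pretreatment moved the P450 genes of irradiated rats. By limma 0 of 39 were called, where 0.791% of all named genes were (0.271% higher and 0.521% lower), and the methods' t-test called 0 with or without adjustment. By limma 2 had an unadjusted p under 0.05. Cyp2d2 was higher by 0.37 (adjusted p = 0.215 by limma), with 13.57, 13.29 and 13.51 in HSC + TBI against 13.06, 13.09 and 13.13 in TBI, without overlap. Cyp4a1 was at -0.46 (adjusted p = 0.289 by limma), where HSC + TBI rats overlapped TBI 1 but not TBI 2 and 3. Without TBI 1 the count was 1, Cyp4a1 at -0.68.

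For the 7 genes called after TBI the intervals of this difference were wide. On the log2 scale the 95% interval ran from -1.38 to 0.83 for Cyp4a2, from -1.25 to 0.51 for Cyp4a8 and from -0.90 to -0.02 for Cyp4a1. It ran from -0.54 to 0.45 for Cyp2a1 and from -0.47 to 1.20 for Cyp2c11. For Cyp2t1 it ran from -0.34 to 0.53 and for Cyp2b1 from -0.16 to 0.72. These intervals are not adjusted for the number of genes, and all 7 differences failed the test, which does not show that the groups were alike.

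Over the 39 members, 29 had higher means in HSC + TBI than in TBI (74.4%), against 53.9% of all named genes, with a median of 0.12 against 0.02. The values were small, from -0.59 to 0.37. The number with higher means was 32 under the 75th percentile shift, 30 with normexp and 29 with the authors' own normalized values. In family 2 it was 19 of 24, with a median of 0.19. The 4 Cyp4a genes were all lower, with a median of -0.32 under quantiles and -0.22 under the 75th percentile shift, where the median of all named genes was 0.03.

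**Figure D4:**
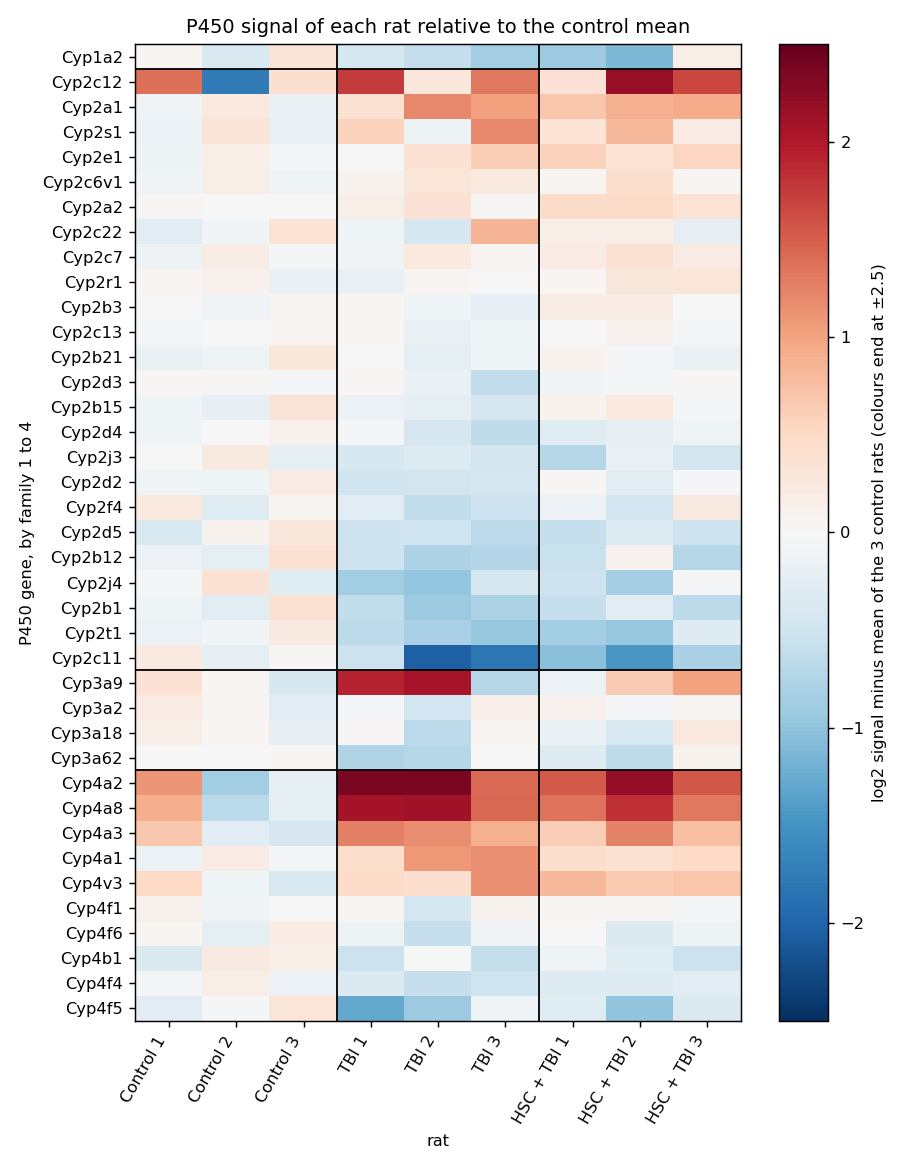
Log2 signal of each of the 39 P450 genes (rows, by family, ordered by the change after TBI) in each of the 9 rats (columns) minus the mean of the 3 control rats. The Cyp4a rows are above the control mean in all 6 irradiated rats and also in control 1 for Cyp4a2, Cyp4a3 and Cyp4a8, and the Cyp2c11 row is below it in all 6.

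The receptors and partners of the P450 enzymes were read from lists chosen for their roles, with earlier results of these data known. Of 20 regulators tested, 3 rose and 1 fell after TBI by limma, where 3.87% of all named genes rose and 3.92% fell, and their median was -0.26. Nr1i2, which encodes PXR, was at 12.47, 12.58 and 12.35 (log2 signal) in control, 11.83, 12.03 and 11.89 in TBI, and 12.48, 12.33 and 12.22 in HSC + TBI. Its TBI rats were below all others, and the change of -0.55 had a limma adjusted p of 0.0303 but was under 1.5-fold. Nr1i3, which encodes CAR, was at 8.97, 8.40 and 9.34 in control, 7.94, 7.87 and 7.94 in TBI, and 8.94, 8.33 and 9.29 in HSC + TBI. Again the TBI rats were the lowest, but the difference of -0.98 had a limma adjusted p of 0.0696.

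Ppara was at 9.41, 9.06 and 9.38 in control, 8.58, 8.53 and 8.90 in TBI, and 9.22, 9.05 and 9.50 in HSC + TBI. Its TBI rats were below both other groups, with a log2 fold change of -0.61 against control (limma adjusted p = 0.0620), while its P450 targets of subfamily 4a had higher means. Against TBI, the HSC + TBI means were higher by 0.43 for Nr1i2, 0.94 for Nr1i3 and 0.59 for Ppara, without overlap between the rats of these groups. None of these passed in limma (adjusted p = 0.152 for Nr1i2, 0.168 for Nr1i3 and 0.153 for Ppara). The share of all named genes without overlap between these groups is not given here. Ahr was not tested.

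The called regulators were Nfe2l2, Cebpb and Nr1h4, which rose, and Nr0b2, which fell. Nfe2l2, the regulator of antioxidant genes, rose after TBI (log2 1.12, limma adjusted p = 0.00309) and after HSC + TBI (log2 0.91, limma adjusted p = 0.0104). Cebpb, a factor of the acute phase response, rose by 0.76 after TBI (limma adjusted p = 0.0356), and Nr1h4, the bile acid receptor, rose by 0.66 (limma adjusted p = 0.0188). Nr0b2, a repressor of other nuclear receptors, was at 14.84, 14.12 and 15.05 in control, 12.92, 12.41 and 13.93 in TBI, and 14.03, 14.60 and 14.51 in HSC + TBI. It fell by 1.58 on the log2 scale after TBI (limma adjusted p = 0.0440) and was at -0.29 after HSC + TBI.

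Por, the electron donor of all microsomal P450 enzymes, was the 1 gene called among 17 of electron transfer and haem, beside 7.79% of all named genes. It was at 11.25, 11.99 and 11.50 in control, 10.46, 10.92 and 10.78 in TBI, and 11.33, 11.17 and 11.08 in HSC + TBI. The TBI rats were the lowest of the 3 groups, without overlap. Por fell by 0.86 on the log2 scale after TBI (limma adjusted p = 0.0387). After HSC + TBI it was at -0.39 against control (limma adjusted p = 0.339) and at 0.47 against TBI (limma adjusted p = 0.301).

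Genes outside the P450 families that the same receptors control moved in both directions. Of 19 tested, 3 rose and 2 fell after TBI, and 4 rose and 1 fell after HSC + TBI, with medians of 0.07 and 0.42. Over all named genes 3.87% rose and 3.92% fell after TBI, and 1.18% rose and 2.71% fell after HSC + TBI. Abcb1b, a drug export pump, rose by 2.56 after TBI (limma adjusted p = 0.00273) and by 3.28 after HSC + TBI (limma adjusted p = 0.0011). Ces2c, a carboxylesterase, rose by 1.52 (limma adjusted p = 0.0116) and 1.76 (limma adjusted p = 0.00992), and Gadd45b, a stress-response gene that CAR induces, by 1.54 (limma adjusted p = 0.0027) and 0.82 (limma adjusted p = 0.0488). Abcc2, a pump of the bile canaliculus, fell by 0.94 (limma adjusted p = 0.00393) and 0.65 (limma adjusted p = 0.0271).

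Of these 19, 2 were called higher in HSC + TBI than in TBI, beside 0.271% of all named genes. Ugt2b1, a glucuronosyltransferase, was at 13.36, 13.14 and 13.09 in control, 13.37, 13.29 and 13.16 in TBI, and 14.09, 14.33 and 13.97 in HSC + TBI. It rose by 0.86 against TBI (limma adjusted p = 0.0404) and by 0.93 against control (limma adjusted p = 0.00979). Abcb1a, another export pump, was at 4.83, 4.35 and 4.28 in control, 3.08, 3.39 and 3.74 in TBI, and 4.71, 4.77 and 5.11 in HSC + TBI. It fell by 1.09 after TBI (limma adjusted p = 0.0205) and was higher by 1.46 in HSC + TBI than in TBI (limma adjusted p = 0.0303), where 2 of the 3 TBI arrays were above background.

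**Figure D5:**
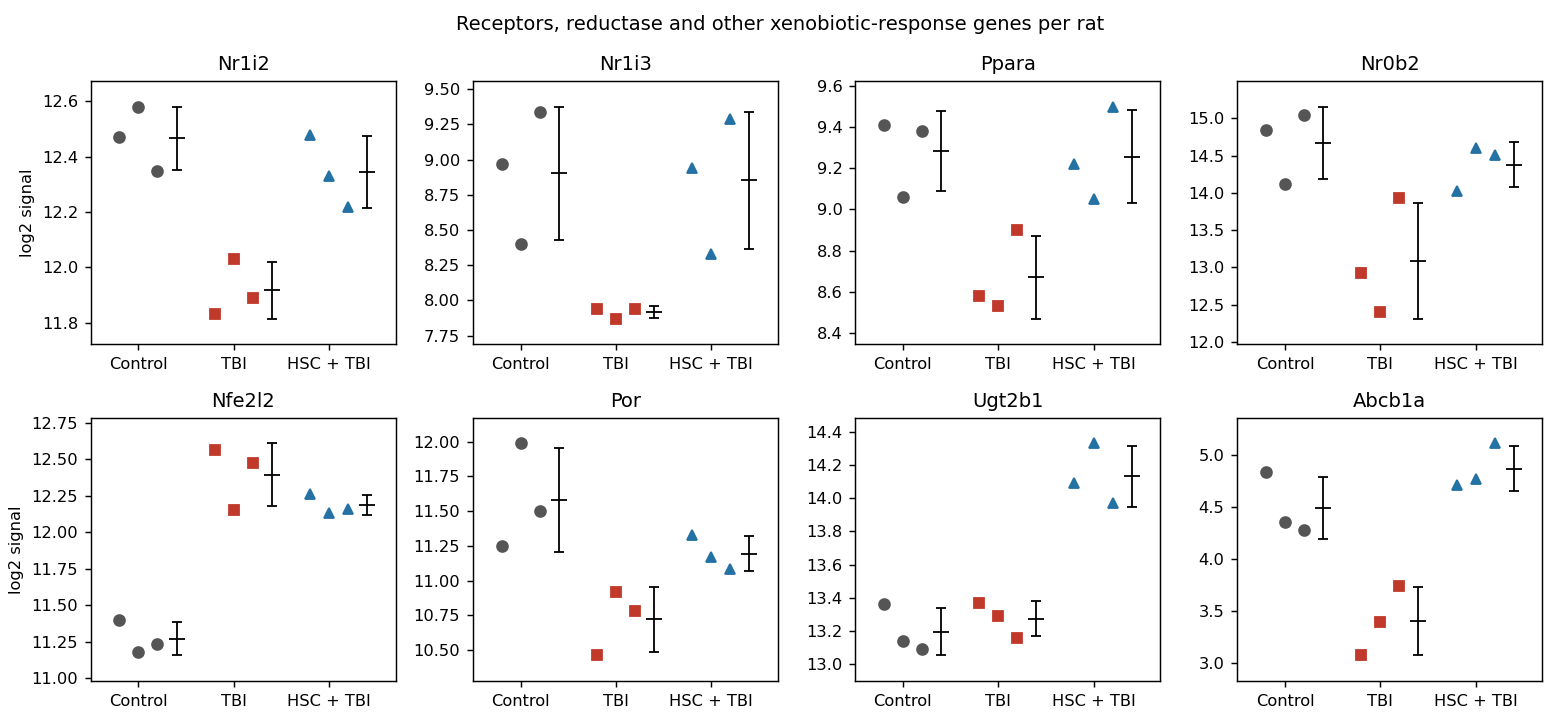
Log2 signal by group of 3 P450 receptors (Nr1i2, Nr1i3, Ppara), the regulators Nr0b2 and Nfe2l2, the reductase Por and 2 other targets (Ugt2b1, Abcb1a); points are single rats and bars are the mean ± SD of 3. In the panels of Nr1i2, Nr1i3, Ppara, Nr0b2, Por and Abcb1a the TBI rats lie below all rats of both other groups, and each panel has its own axis. The genes shown were picked from longer lists. Of the other regulators tested, Rxrb and Bcl6 have this pattern too, and the rest, such as Hnf4a, Arnt and Nr3c1, do not. The share of all named genes with it is not given here.

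PPAR alpha also controls genes of fatty acid use outside the P450 families. Of 18 tested, Pdk4, a brake on glucose oxidation, rose after TBI (log2 2.04, limma adjusted p = 0.0414) and Cpt1a, which admits fatty acids to mitochondria, fell by 0.79 (limma adjusted p = 0.0249), where 3.87% of all named genes rose and 3.92% fell. The median of the list was 0.05, against 1.48 for the 4 Cyp4a genes. Genes that mark the zones of the liver lobule gave no call by limma in any comparison, with 0 of 12 pericentral genes and 0 of 12 periportal genes, among them Cyp2e1, Cyp1a2 and Cyp2f4. After TBI 1 of the former and 2 of the latter had an unadjusted p under 0.05. Their medians after TBI were 0.29 and -0.13. Over all named genes limma called 7.79% after TBI and 3.88% after HSC + TBI, each against control. In HSC + TBI against TBI the share was 0.791%.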

How the data were processed

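Liver RNA of 9 rats was hybridized to 1-colour Agilent arrays. Per the file headers, the authors read spot intensity with Feature Extraction 10.7.3.1, which gave the processed signal used here. The authors also deposited log2 values, quantile normalized per the study's methods, which served as an alternative and differed by a median of 0.029 to 0.032 (log2) per array.

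Control spots and 84 to 115 outlier spots of 43379 per array were left out, no spot being saturated. Processed signals (floor 1) were put on the log2 scale, quantile normalized (limma 3.58.1, R 4.3.3), and then averaged per probe (41012 probes). A probe counted as above background in a rat where over 0.5 of its spots had that flag. Tests covered the 25369 probes for which this held in all 3 rats of some group. Names came by RefSeq accession (16968 probes, assembly GRCr8). A gene was read from its brightest tested probe. Promoters were aligned with Biopython, and figures drawn with matplotlib.

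The 3 groups follow the sample labels and were compared by limma (lmFit, eBayes) in 1 fit, with calls at 1.5-fold and a Benjamini-Hochberg adjusted p under 0.05. Exact permutation of 3 against 3 rats cannot go below p = 0.1, and the number of arrays limits precision. P-values set a difference of group means against the spread between these rats within groups. Each group was on slides of its own, so that difference would include any slide effect. The script was tested on simulated data. Members and lists were chosen with earlier results of these data known. Named in full are called members. The receptor, sex-biased and epoxygenase lists are given with fold changes, the partner lists by their called genes with Ahr, Nr1i2, Nr1i3, Ppara and Por, and the rest by range.

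Alternatives were a 75th percentile shift, normexp (offset 50), the authors' values, outlier spots kept, no dim-probe filter or a filter on all 9 arrays, a fit of the compared groups alone, the methods' t-test, no minimum fold, replicate number and slide as blocks, the mean of a gene's probes, and each rat left out. Protein and probe sequences were not used here.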

Additional observations from a re-analysis of the deposited data

How the results depend on the processing

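For TBI against control, where 7 P450 genes were called, the count was 4 with the 75th percentile shift, 2 without a filter on dim probes, 1 with only the compared groups, 0 with the methods' t-test after adjustment and 14 with slide as a random block. With each rat left out it ranged from 0 to 4. For HSC + TBI against control, where 0 were called, it was 1 with the 75th percentile shift, 2 with only the compared groups, 5 with the methods' t-test before adjustment and 7 with slide as a random block, and 0 to 4 with each rat left out. For HSC + TBI against TBI it was 0 in every setting but leaving out a rat, which gave 0 to 1. The cause of these shifts was not tested. The estimated correlation within slides was -0.327. Each group was on slides of its own, so this block cannot correct a comparison of groups for slide. With it, the Cyp2a1 log2 fold change after TBI stayed at 0.88, while its limma adjusted p went from 0.0439 to 0.000487. The 14 and 7 calls are therefore not read as firmer results.

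With the replicate block, TBI against control called 4 P450 genes (3 higher and 1 lower), losing Cyp2b1, Cyp2t1 and Cyp4a2, and the other comparisons stayed at 0. Deviations of same-numbered rats from their group means correlated at 0.098 to 0.191 between control and TBI and at -0.144 to 0.015 in the other pairs of groups, so the numbers were not taken to pair the rats. Each control rat correlated best with the TBI rat of its number. None of the 7 called values held its call in all 22 settings, and none changed sign. Signal over background limits few members: 38 of 39 were above background on all 9 arrays, the exception being Cyp2s1.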
